A study of Homo sapiens with 3 samples.

Results

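The HOX genes are homeodomain transcription factors that stand in 4 clusters, HOXA to HOXD, on separate chromosomes. The part of the series described here is 38 HOX genes. They are of 39 protein-coding genes with a HOXA to HOXD symbol in a RefSeq gene table of GRCh38, and of 20037 protein-coding genes in all. They were chosen by symbol and not by any measured value, though with earlier results of these data known. The members are 10 genes each of HOXA and HOXB and 9 each of HOXC and HOXD, and 1 further gene of the family was not analysed here. All libraries came from hCMEC/D3 cells, which were derived from human brain microvessel endothelium and immortalized, and which were kept on a collagen coat until confluent, with no treatment named and no second cell type or condition. It is 1 cell line in culture, and chromatin was profiled in 1 ATAC-seq library, labelled replicate 2.

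Within a cluster the HOX genes are ordered by paralogue number, and in the embryo genes of low number are generally switched on earlier and more towards the head than genes of high number. Adult cells often keep the set of HOX genes of the body level they came from, which is why the clusters are read as a record of positional identity. In cells where a HOX gene is silent it is usually held by Polycomb complexes, and where it is active its CpG-rich promoter is usually free of them.

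ATAC-seq cuts DNA with the Tn5 transposase where chromatin is accessible, and a peak is a stretch where cuts pile up. The authors' list held 106415 broad peaks called from 22188172 tags. Pileup, in tags, and fold, the pileup over a background estimated from the same library, are the authors' values for each peak. For broad peaks the caller gives both as means over the whole region and not at a summit. A high or low peak is thus here a peak of high or low mean pileup. A gene counted as having a peak when at least 1 bp of a peak lay in its annotated extent or within 1 kb of it. Shares carry a 95% Wilson interval over genes, which covers counting only. With 1 library there was no replicate error and no test between groups. Accessibility in few cells and weak accessibility in all cells cannot be told apart in such a bulk library. All 15 endothelial markers examined, among them CDH5, PECAM1 and ERG, had a peak, with a median highest pileup of 63.4 tags. So did 12 of 15 markers of neurons, glia, mural cells and leukocytes, the exceptions being AQP4, AIF1 and MOG. The median highest pileup of those 12 was 51.0 tags. Over all protein-coding genes 83.7% had a peak, and the median among them was 47.8 tags. A peak somewhere in a gene thus did not separate endothelial from other markers.

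Compared with protein-coding genes and gene-dense regions, the HOX clusters carried few peaks, and low ones. A peak lay in or within 1 kb of 12 of the 38 HOX genes (31.6%, 95% Wilson interval 19.1% to 47.5%), against 83.7% of all protein-coding genes. The HOX share depended on the settings: it was 65.8% with a window of 5000 bp (87.4% of all genes), 18.4% with −log10 q of at least 5 (79.0%) or with a fold of at least 4 (73.6%), and 5.26% with only peaks at or above the median pileup (72.3%). HOX genes are short, with a median length of 3786 bp against 24115 bp, and a short gene has less room for a peak. Among genes of up to 10 kb, 7 of 32 HOX genes had a peak (21.9%, 11.02% to 38.8%), against 63.3% of protein-coding genes of that size. Among protein-coding genes no longer than the longest HOX gene, 45574 bp, the share was 78.1%. The median HOX gene had 0 peaks and the median protein-coding gene 2. A peak within 1 kb of either gene end was found for 6 HOX genes (15.8%), against 72.8% of all protein-coding genes.

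**Figure D1:**
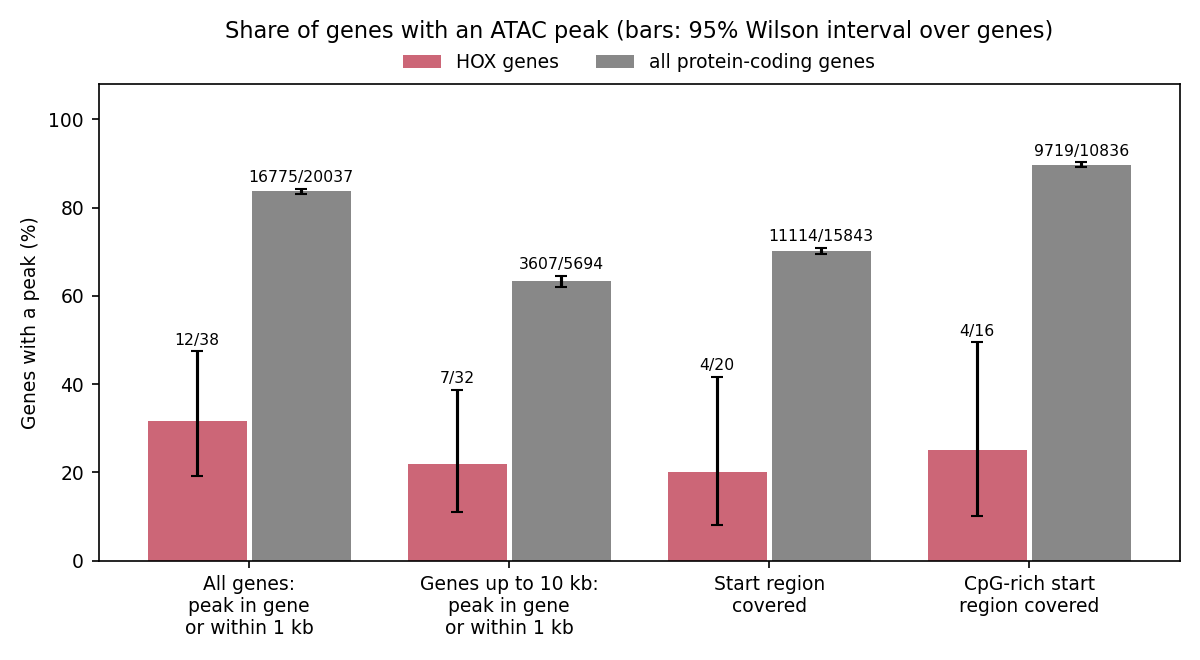
Percent of genes with an ATAC peak for HOX genes and all protein-coding genes, by gene extent with 1 kb either side, for genes of up to 10 kb, over annotated start regions and over CpG-rich start regions; error bars are 95% Wilson intervals over genes and labels give genes with a peak over genes counted. The HOX shares run from 20.0% to 31.6% and the others from 63.3% to 89.7%.

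The 4 gene spans, from the first to the last HOX gene analysed, added up to 520.6 kb and held 26 peaks that covered 2.55% of the sequence. Their pileups ran from 8.17 to 25.9 tags with a median of 15.1. Over all peaks of the list the median pileup was 21.6 tags, and over the 15869 peaks at an end of a protein-coding gene it was 40.1 tags. Of the 26 peaks, 6 were above the median of all peaks in pileup and none reached the median of the peaks at gene ends. Width set them apart less, since their median was 497 bp against 452 bp over all peaks and 944 bp at gene ends. Their median fold was 4.70 against 4.49 over all peaks. For 13 of the 26 the local background stood at the floor of 2.37 tags that the caller allows, against 35.8% of all peaks, so the fold of those 13 follows from their pileup alone.

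**Figure D2:**
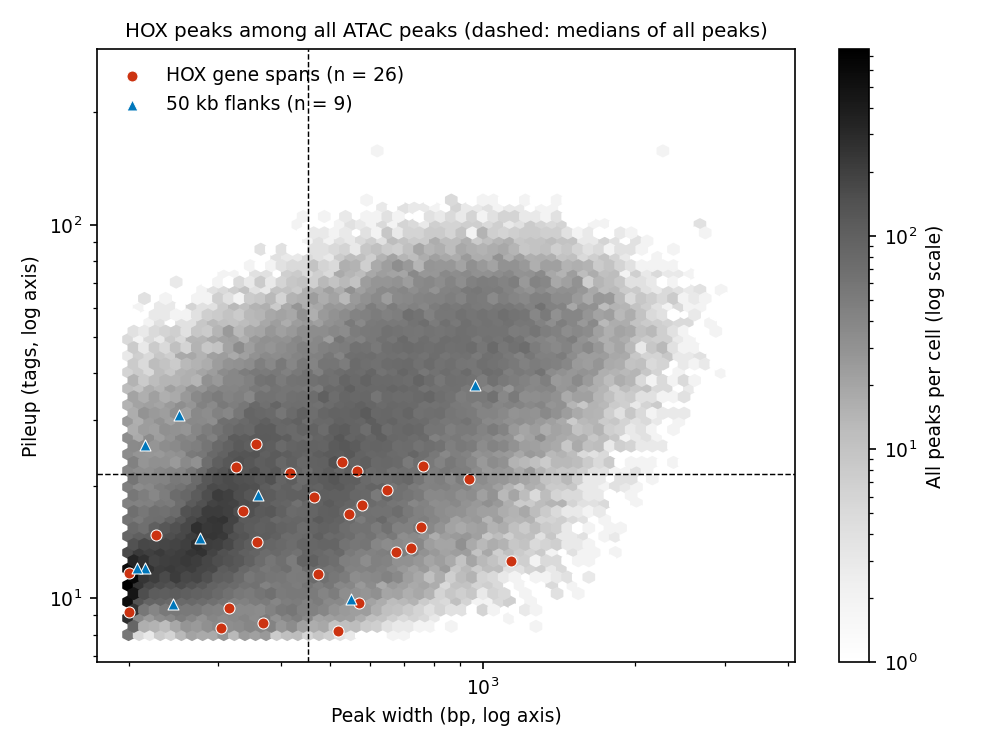
Width in bp and pileup in tags, both on log axes, of the 26 peaks in the HOX gene spans (circles) and the 9 peaks in the 50 kb flanks (triangles) over the density of all 106415 peaks (grey); dashed lines are the medians of all peaks. Most HOX peaks lie below the pileup median of 21.6 tags, on both sides of the width median of 452 bp.

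The clusters are dense in genes, and dense regions usually hold many peaks. The HOXB span, 200.2 kb, is less evenly so. It holds no HOX gene between HOXB9, which ends at 48626358, and HOXB13, which starts at 48724763. In tiles of 100 kb with at least 4 protein-coding genes the median was 9 peaks and 5.82% covered. The HOX spans held 6.02 peaks per 100 kb in HOXA, 4.49 in HOXB, 4.27 in HOXC and 5.80 in HOXD. They were covered to 2.57%, 2.42%, 1.74% and 3.72%, in the same order. Of the 1533 dense tiles, 16.0% were covered as little as HOXA, 15.1% as little as HOXB, 11.1% as little as HOXC and 25.4% as little as HOXD. By number of peaks, 31.6% of the dense tiles held as few as HOXA, 18.9% as few as HOXB, 18.9% as few as HOXC and 24.3% as few as HOXD. The lower quartile of the dense tiles was 6 peaks. The spans thus lay in the lower part of gene-dense tiles without being outside their range. Over all 30529 tiles, many of them poor in genes, the median was 2 peaks and 0.930% covered, and every HOX span was above both.

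**Figure D3:**
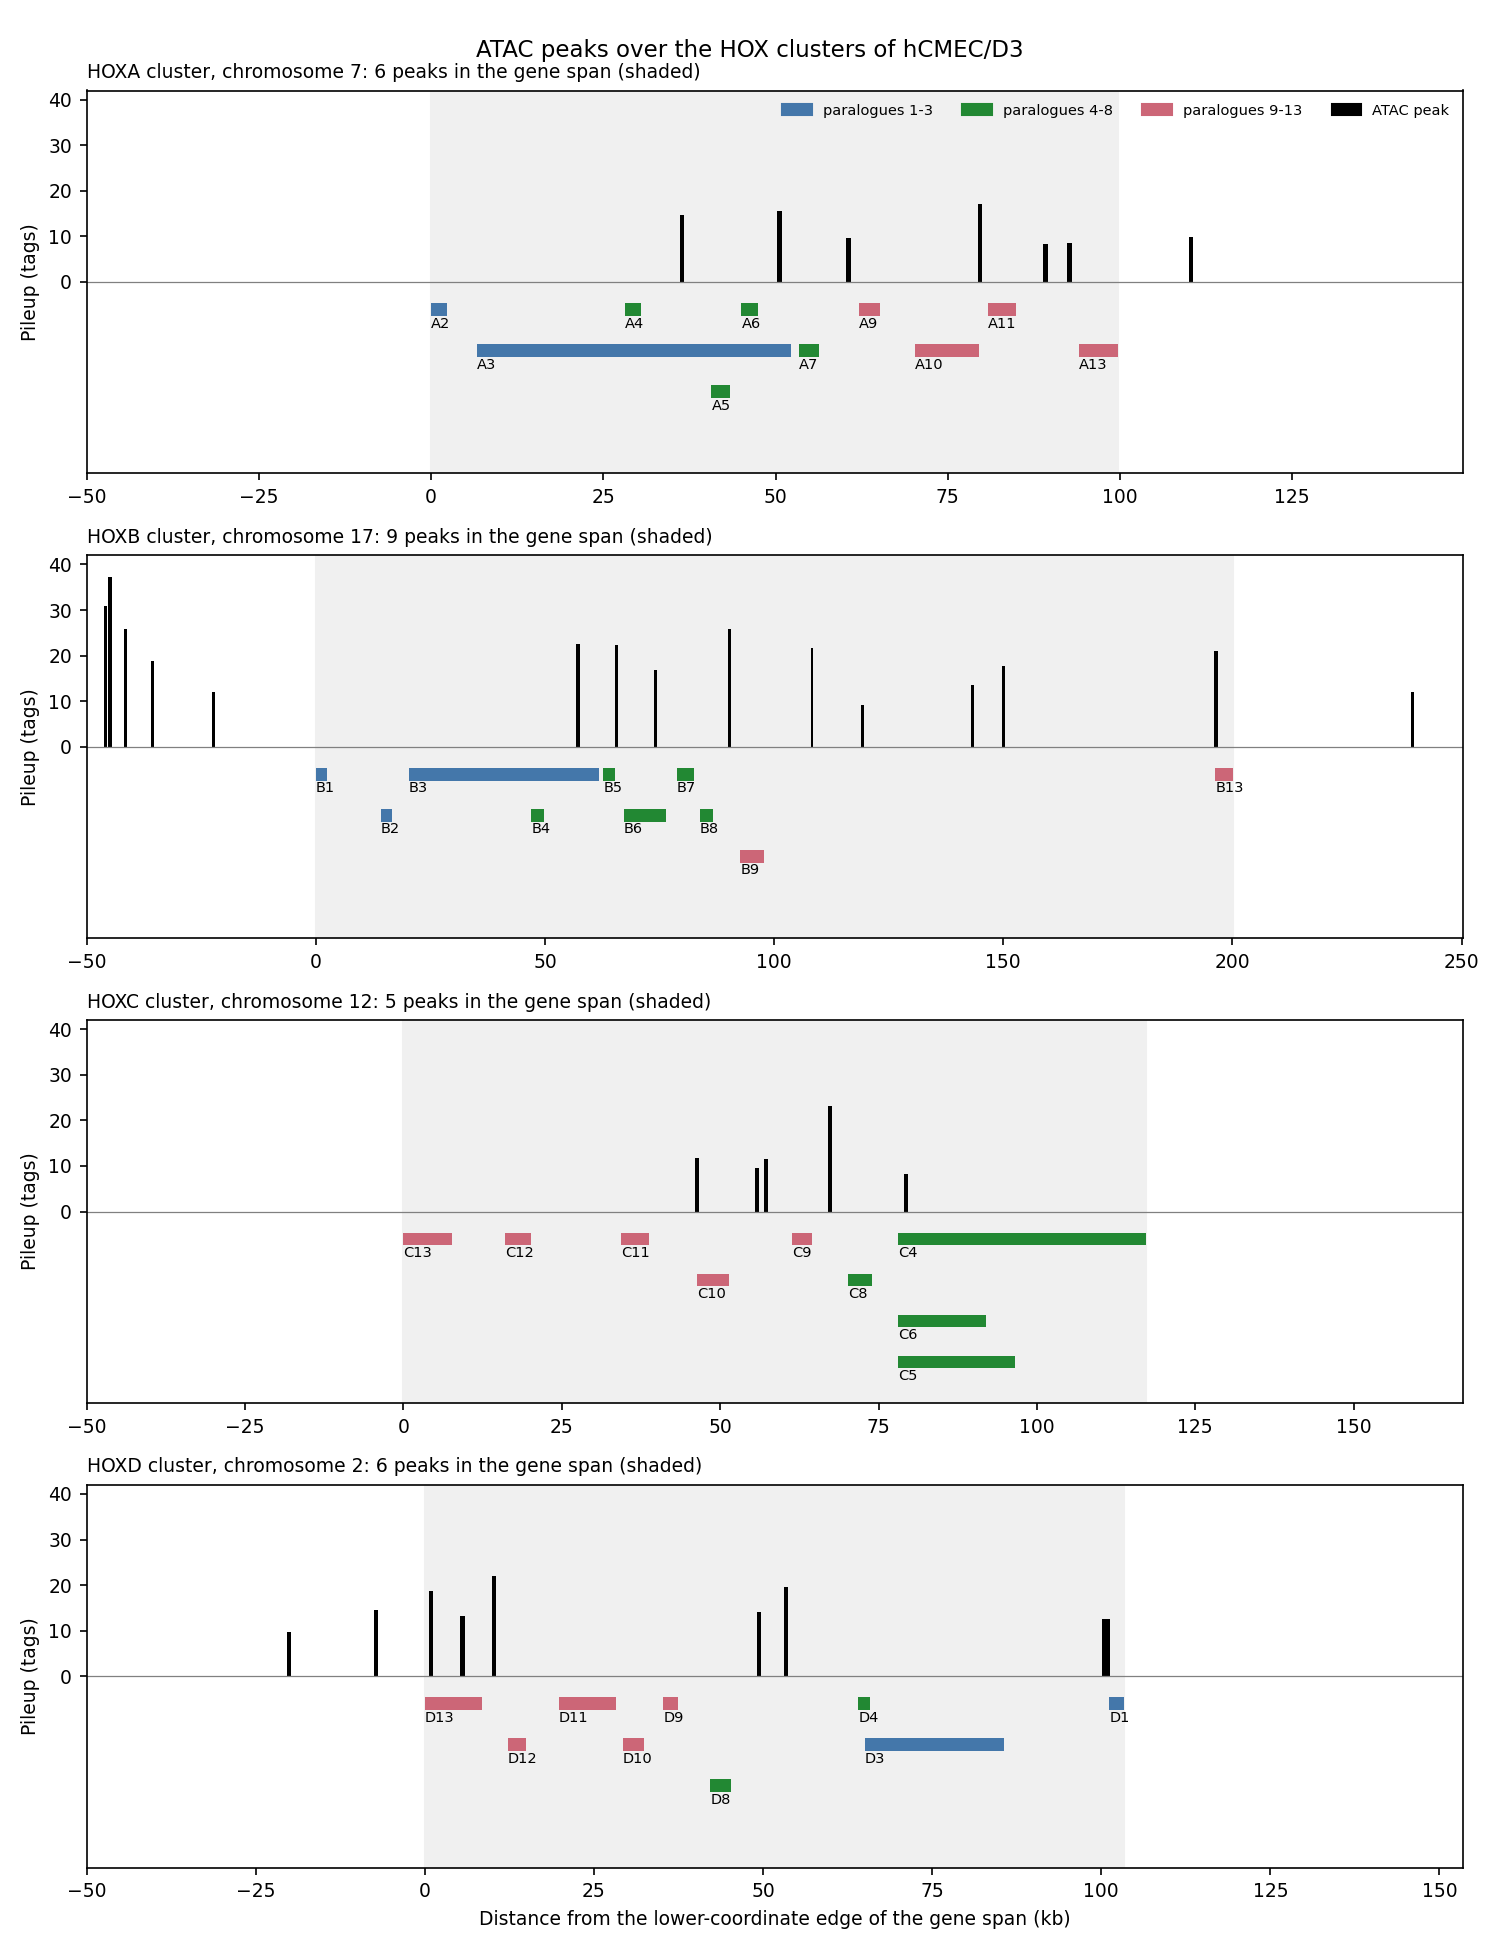
Maps of the 4 clusters with 50 kb either side; the x axis is the distance in kb from the lower-coordinate edge of the gene span (shaded), black bars are peaks with their pileup in tags on the y axis (drawn at least 0.6 kb wide), and coloured boxes are HOX genes by paralogue class, named without the prefix. Peaks are lacking over HOXA2, HOXB1, HOXB2, HOXC11 to HOXC13 and HOXD8 to HOXD12, and the highest bars of the maps are in the flank beside HOXB1.

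The HOXA cluster lies on chromosome 7, here from 27100354 (HOXA2) to 27200091 (HOXA13), and 2 of its 10 genes had a peak. HOXA10, a posterior gene with roles in the reproductive tract and in blood progenitors, had the highest pileup of the cluster, 17.1 tags, in a peak of 336 bp from 27179779 to 27180114 with a fold of 5.18. That peak also overlaps HOXA10-HOXA9, a separate protein-coding entry of the gene table. HOXA3, which patterns the pharyngeal arches, had the most peaks, 2, with pileups of 14.8 and 15.5 tags, and the largest covered length, 984 bp. Its annotated extent of 45574 bp reaches past HOXA4, HOXA5 and HOXA6, and its peaks lie in that stretch. The first, from 27136452 to 27136678, lies between HOXA4 and HOXA5 and the second, from 27150602 to 27151358, between HOXA6 and HOXA7, where it also overlaps the antisense gene HOXA-AS3.

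HOXA9, which has roles in blood progenitors and in endothelial cells, had no peak in its extent or within 1 kb. The nearest peak lay 1215 bp away, from 27160653 to 27161223, with a pileup of 9.72 tags. HOXA11, needed for limb and uterus development, and HOXA13, the gene of the digits and hindgut, were just outside the 1 kb limit too, at 1043 bp and 1279 bp from a peak. HOXA7 and HOXA6 were 2.36 and 2.83 kb from the nearest peak, and HOXA5 and HOXA4 were 4.37 and 5.70 kb from it. HOXA2, a hindbrain gene, was 33.8 kb from the nearest peak. No peak was called from 26959240 to 27136451, a stretch of 177.2 kb that holds HOXA2 and HOXA4, and 1.62% of all gaps between neighbouring peaks were that long.

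The HOXB cluster lies on chromosome 17, from 48528526 (HOXB1) to 48728750 (HOXB13), and 4 of its 10 genes had a peak. It had the highest pileups of the 4 clusters, with a median of 20.9 tags over 9 peaks, and 8 of these 9 kept a fold of at least 4. HOXB3 had a peak of 762 bp from 48585323 to 48586084 with 22.7 tags, the highest at any HOX gene analysed, and a fold of 5.95. That peak lies in the long annotated extent of HOXB3 between HOXB4 and HOXB5. A peak 121 bp beyond the higher-coordinate end of HOXB5, a gene named in the differentiation of endothelial precursors, ran from 48593900 to 48594225 with 22.4 tags and a fold of 5.85. HOXB6 held a peak of 544 bp with 16.8 tags. The peaks at HOXB5 and HOXB6 both overlap HOXB-AS3, a noncoding gene of the cluster.

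HOXB13, the most posterior gene of the cluster and a marker of prostate and distal colon, had the largest covered length of HOXB, 938 bp. Its peak, from 48724457 to 48725394, had 20.9 tags and a fold of 5.63, spans the lower-coordinate edge of the gene and also overlaps PRAC2 and MIR3185. The highest and most enriched peak of all HOX spans was outside the genes: it ran from 48618566 to 48618922 between HOXB8 and HOXB9, with 25.9 tags and a fold of 7.97, higher than 94.9% of all peaks in fold. HOXB9 was 2.23 kb and HOXB8 3.27 kb from that peak. A further 4 peaks lay in the long interval between HOXB9 and HOXB13, with pileups of 21.6, 9.20, 13.7 and 17.8 tags.

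HOXB7 was 4.31 kb and HOXB4, a gene known for expanding blood stem cells, 6.97 kb from the nearest peak. The hindbrain genes HOXB1 and HOXB2 were 22.4 and 36.5 kb from one. A stretch of 79.2 kb without a peak, from 48506146 to 48585322, holds HOXB1, HOXB2 and HOXB4.

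The HOXC cluster lies on chromosome 12, from 53938831 (HOXC13) to 54056030 (HOXC4), and had the lowest median pileup and the lowest coverage of the 4 clusters, though its share of genes with a peak was the highest. HOXC4, HOXC5 and HOXC6 begin at the same annotated base and share 1 peak, from 54017900 to 54018418, so these 3 of the 4 genes with a peak rest on 1 region. That peak had 8.17 tags and a fold of 2.72, and only 0.260% of all peaks were that low in pileup or lower. HOXC10 had the highest pileup of the HOXC genes, 11.7 tags, in a peak of 200 bp, the shortest width the caller reports, that ended 16 bp before the gene. The highest peak of the span, with 23.2 tags and a fold of 6.17, ran from 54005928 to 54006455 between HOXC9 and HOXC8. It was 2.59 kb from HOXC9 and 2.53 kb from HOXC8. Without the shared peak, that is without HOXC4, HOXC5 and HOXC6, 9 of 35 HOX genes had a peak (25.7%).

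HOXC11, HOXC12 and HOXC13, the last of which is needed for hair and nails, were 7.29, 26.0 and 38.4 kb from the nearest peak. They lie in a stretch of 159.3 kb without a peak. Towards higher coordinates no peak was called for 140.8 kb, from 54018419 to 54159174. That stretch begins inside the cluster, at the edge of the shared peak, and takes in most of HOXC4, HOXC5 and HOXC6. Both 50 kb flanks of HOXC held 0 peaks.

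The HOXD cluster lies on chromosome 2, from 176087487 (HOXD13) to 176190907 (HOXD1), and the genes at its 2 edges were the ones with a peak. HOXD13, a gene of digits and genitals, had 2 peaks with 18.7 and 13.3 tags that together covered 1138 bp. HOXD1, at the opposite edge, had the widest peak of all HOX spans, 1139 bp from 176187649 to 176188787, with 12.6 tags and a fold of 3.99. That peak was wider than 91.2% of all peaks and lower in pileup than most, at the 17.7th percentile. It also overlaps HAGLR, a noncoding gene that starts beside HOXD1.

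Between these edges 7 HOXD genes had no peak. HOXD8, HOXD9, HOXD10, HOXD11 and HOXD12 all lie in 1 stretch of 38.7 kb without a peak, from 176097911 to 176136644. Of 106391 gaps between neighbouring peaks, 80 hold at least 5 whole protein-coding genes. HOXD12 was 1.89 kb from the nearest peak, HOXD8 3.95 kb, HOXD11 9.37 kb, HOXD9 11.7 kb and HOXD10 16.7 kb. HOXD3 and HOXD4, the first of which has been tied to angiogenic endothelium, were 11.4 and 10.4 kb from a peak and lie in a stretch of 46.5 kb without one. The highest HOXD peak, 21.9 tags with a fold of 5.41, was between HOXD13 and HOXD12.

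Lying whole between 2 neighbouring peaks was the usual state of a HOX gene and not of genes at large: it held for 28 of 38 HOX genes, against 17.6% of all protein-coding genes. This too depends on length, since a short gene fits into a gap more easily. The typical distance was modest, with a median of 2.56 kb from a HOX gene to the nearest peak, and 9 of the 38 were over 10 kb from one, against 10.2% of all protein-coding genes. Among genes of up to 10 kb, 8 of the 32 HOX genes were that far (25%), against 21.95% of all protein-coding genes of that size. These shares are close, while the shares of short genes directly at a peak, 21.9% and 63.3%, are far apart.

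By paralogue class, a peak was found for 3 of 7 genes of groups 1 to 3, 5 of 15 of groups 4 to 8 and 4 of 16 of groups 9 to 13. The Wilson intervals, 15.8% to 75.0%, 15.2% to 58.3% and 10.2% to 49.5%, overlap widely. No order from anterior to posterior could be read from them. Of 13 paralogue groups, 6 had no gene with a peak (groups 2, 7, 8, 9, 11 and 12, with 16 genes). In group 9, HOXA9, HOXB9, HOXC9 and HOXD9 all lacked one. In group 10, HOXA10 and HOXC10 had a peak and HOXD10 did not, and in group 13 HOXB13 and HOXD13 had one and HOXA13 and HOXC13 did not. In group 3 the peaks of HOXA3 and HOXB3 lie in extents of over 40 kb, near genes of higher number. By cluster the shares were 20% for HOXA, 40% for HOXB, 44.4% for HOXC and 22.2% for HOXD, with intervals that overlap.

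**Figure D4:**
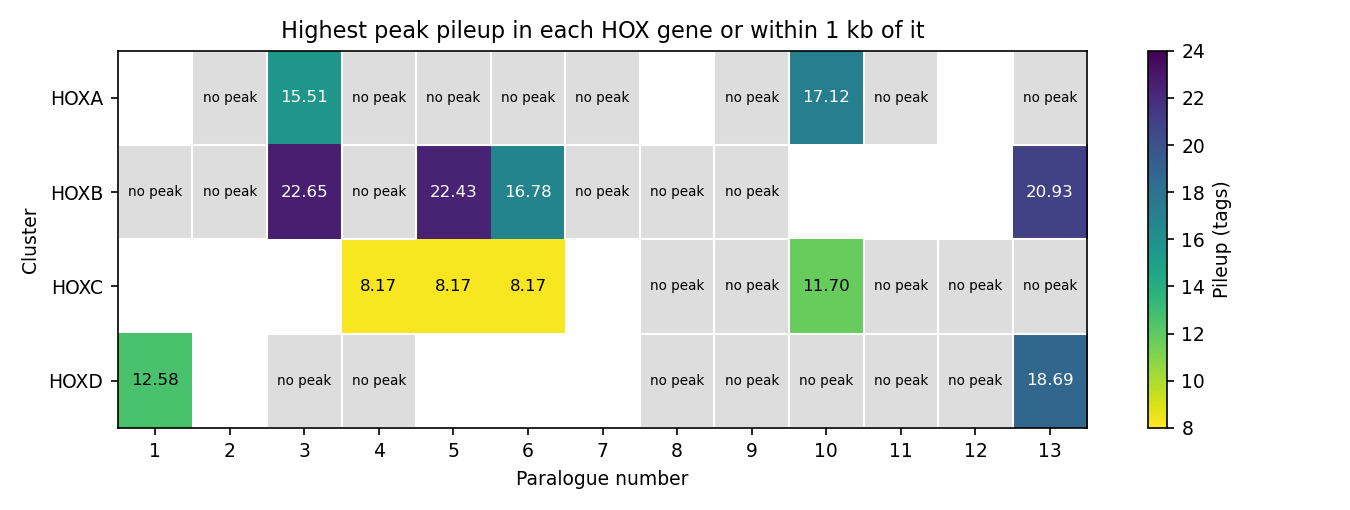
Highest peak pileup in tags at each HOX gene (in its extent or within 1 kb), by cluster and paralogue number; grey cells are genes with no peak and white cells hold no gene analysed. Filled cells are 12, the highest being HOXB3 and HOXB5, and the equal values of HOXC4, HOXC5 and HOXC6 come from 1 shared peak.

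Copy number was not measured, so each cluster was also set beside its own chromosome. The median pileup of the HOXA span was 12.3 tags against 20.6 over the 5230 peaks of chromosome 7. For HOXC it was 11.6 against 22.5 on chromosome 12, for HOXD 16.4 against 21.0 on chromosome 2, and for HOXB 20.9 against 24.5 on chromosome 17. All 4 medians were below that of the chromosome, HOXB least so.

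Start regions were next compared. RefSeq start regions, 250 bases before to 50 bases after an annotated start, were at hand for 20 of the 38 HOX genes, with 27 starts of which 26 are distinct (HOXC4 and HOXC5 share 1). Of HOXB only HOXB1, and of HOXC only HOXC4 and HOXC5, were among these 20. HOXB5 and HOXC10, with peaks 121 bp and 16 bp from the gene and 22.4 and 11.7 tags, were thus not counted here. A peak covered a start region of 4 of these 20 genes (20.0%, 8.07% to 41.6%), against 70.2% of 15843 protein-coding genes. HOX starts are not poor in CpG: 74.1% were CpG-rich (at least 50% GC and an observed over expected CpG ratio of at least 0.6), against 59.98% of all protein-coding starts. Among genes with a CpG-rich start the contrast was wider, with 4 of 16 HOX genes covered (25%, 10.2% to 49.5%) against 89.7% of 10836 genes.

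The 4 covered starts belong to HOXA3, HOXA10, HOXD1 and HOXD13. Their peaks had 15.5, 17.1, 12.6 and 13.3 tags, while the median highest pileup over the 11114 genes with a covered start was 47.8 tags (quartiles 34.3 and 61.7). Of those genes, 7.31% were as low as the highest of the 4 or lower. The start regions of HOXA3 and HOXA10 covered by a peak lay wholly inside it, as did that of HOXD1. At HOXD13 the peak began 15 bp downstream of the start and took in 35 of the 300 bases. HOXA3 has 7 annotated starts, and the covered one is far upstream, between HOXA6 and HOXA7; the other 6 were uncovered. HOXA10 has 2, of which the upstream one was covered.

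The 250 bases before the start are shown for these 4 genes and, as a CpG-rich start without a peak, for HOXA13, to let the sequences under and outside peaks be compared. They are from RefSeq, GRCh38.p14, written 5′ to 3′ on the strand of the gene, with each CpG in capitals. HOXA10 lies at chr7:27179862-27180111, minus strand, with 19 CpG and 58.8% GC, all 250 bases in a peak. HOXA3, at its covered start, lies at chr7:27150951-27151200, minus strand, with 26 CpG, all 250 bases in a peak. HOXD1 lies at chr2:176188418-176188667, plus strand, with 31 CpG and 74.8% GC, all 250 bases in a peak. HOXD13 lies at chr2:176092471-176092720, plus strand, with 21 CpG and 0 bases in a peak, since its peak begins after the start. HOXA13 lies at chr7:27200092-27200341, minus strand, with 40 CpG, 78.0% GC and 0 bases in a peak.
HOXA10: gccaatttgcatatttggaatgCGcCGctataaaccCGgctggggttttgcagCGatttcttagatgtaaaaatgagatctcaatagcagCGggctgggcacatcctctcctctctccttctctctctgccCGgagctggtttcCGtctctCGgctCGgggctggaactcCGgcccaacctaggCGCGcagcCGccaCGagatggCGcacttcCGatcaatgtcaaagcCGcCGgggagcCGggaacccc
HOXA3: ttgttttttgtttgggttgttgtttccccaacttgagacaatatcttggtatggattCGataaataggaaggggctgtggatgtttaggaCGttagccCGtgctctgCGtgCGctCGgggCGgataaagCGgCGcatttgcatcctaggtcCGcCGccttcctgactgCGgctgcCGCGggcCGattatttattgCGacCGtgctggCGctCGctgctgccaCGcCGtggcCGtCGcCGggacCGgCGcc
HOXD1: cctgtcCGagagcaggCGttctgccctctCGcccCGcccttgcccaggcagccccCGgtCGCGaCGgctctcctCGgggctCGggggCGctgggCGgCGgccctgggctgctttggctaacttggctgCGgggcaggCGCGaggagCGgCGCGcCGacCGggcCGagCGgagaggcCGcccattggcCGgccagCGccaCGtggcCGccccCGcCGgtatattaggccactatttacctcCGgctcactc
HOXD13: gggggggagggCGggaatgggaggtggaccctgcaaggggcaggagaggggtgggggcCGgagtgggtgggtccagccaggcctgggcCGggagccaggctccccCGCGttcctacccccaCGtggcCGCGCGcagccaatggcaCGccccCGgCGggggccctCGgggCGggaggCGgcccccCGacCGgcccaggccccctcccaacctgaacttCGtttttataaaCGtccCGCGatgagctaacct
HOXA13: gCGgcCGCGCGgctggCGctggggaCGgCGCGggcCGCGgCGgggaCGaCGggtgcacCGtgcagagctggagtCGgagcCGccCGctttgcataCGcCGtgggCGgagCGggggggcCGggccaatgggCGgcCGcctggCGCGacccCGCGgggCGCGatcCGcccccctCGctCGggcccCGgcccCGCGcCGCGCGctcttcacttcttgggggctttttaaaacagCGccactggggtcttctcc

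The sequence of HOXA13 has more CpG than any of the covered ones and no peak, and HOXA10, the one with the fewest CpG, lay wholly in a peak. Of the uncovered starts, those of HOXC4 and HOXC5 were nearest to a peak, at 1.01 kb, and those of HOXA3 at its most upstream start and HOXD12 followed at 1.23 and 1.89 kb. The median of the 27 HOX starts was 5.70 kb from a peak, while the median protein-coding start lay inside one. That median is over starts and not genes, and HOXA3 gave more starts than any other HOX gene. HOXB1 and HOXA2 were the farthest, at 24.9 and 33.8 kb.

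Short motifs were counted in the 300 bases of each start region, on both strands, as a description of letters and not of binding. TATAAA, the TATA box core, was in 19.2% of the 26 distinct HOX starts and 9.498% of all distinct protein-coding starts, and the HOX genes with it were HOXA3, HOXA9, HOXA10 and HOXD13. It stands in the printed sequences of HOXA10 and HOXD13. TGATTNAT, a site type of PBX and HOX dimers, was in 2 HOX starts, those of HOXA2 and HOXD11 (7.69%, against 2.06%). AGTTCA, a half-site of retinoic acid receptors, was in 19.2% against 8.68%, and the related AGGTCA in 0 HOX starts against 11.9%. AGGGGGC, a CTCF core, was in 15.4% against 17.5%. TGANTCA, the AP-1 site, was in 0 of the 26 distinct HOX starts against 6.16% of all. With 26 starts each of these shares rests on 5 starts or fewer.

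Away from the genes, 14 of the 26 peaks in the spans lay over 1 kb from any HOX gene, 10 overlapped one and 2 lay beside one. The 14 had a median pileup of 13.9 tags, and those that overlapped a gene 16.1 tags. Noncoding genes were overlapped by 13 of the 26. Some of these are peaks in LINC03057 and LINC02086, between HOXB9 and HOXB13, that lie 10.1 to 46.0 kb from any HOX gene. The same share over all peaks is not given here, so the count does not set the HOX peaks apart. Of 18 noncoding genes of the clusters found in the gene table, 7 had a peak in or within 1 kb of them (38.9%, Wilson interval 20.3% to 61.4%, against 51.3% of all lncRNA genes of the table), from HOXA11-AS at 8.31 tags to HOXB-AS3 at 22.4. The others were HOXA-AS3, HOXD-AS2, HAGLR, HOXC-AS3 and HOXC-AS2. HOTAIR, the HOXC transcript known for its link to Polycomb, had no peak and was 9.98 kb from one. HOTTIP, at the posterior edge of HOXA, was 3.13 kb and HOTAIRM1, at its anterior edge, 36.2 kb from a peak. HAGLROS, HOXA-AS2, HOXA10-AS, HOXC13-AS, HOXC-AS1, HOXB-AS1, HOXB-AS2 and HOXB-AS4 had none either.

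Of the 6 miRNA genes of the clusters, 0 had a peak within 1 kb, against 24% of all miRNA genes of the table, and with a Wilson interval of 0% to 39.0% the count does not set them apart. MIR196A2 was nearest to one, at 2.46 kb, then MIR196A1 at 3.94 kb, MIR10A at 5.38 kb, MIR196B at 8.26 kb, MIR10B at 9.15 kb and MIR615 at 15.5 kb. miR-10 and miR-196 target HOX transcripts, and miR-10 has been studied in angiogenesis.

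The flanks differed among the clusters. The 50 kb on the HOXB1 side held 5 peaks with a highest pileup of 37.3 tags, above every peak of the 4 gene spans. That peak ran from 48483180 to 48484144, 44.4 kb from HOXB1. On the far side of HOXB13 there was 1 peak with 12.0 tags, in TTLL6. The HOXD13 side held 2 peaks, of which 1 with 14.5 tags overlaps EVX2, a homeobox gene next to the cluster, and the HOXD1 side held 0. The HOXA13 side held 1 peak with 9.95 tags, and the HOXA2 side and both HOXC sides held 0. Of the genes that flank the clusters, 10 of 11 had a peak (90.9%), near the 83.7% of all protein-coding genes. Their median highest pileup was 58.2 tags and their median length 54996 bp, with CBX5 highest at 90.2 tags and PRAC1 without a peak. The value of PRAC2, 20.9 tags, is that of the peak at HOXB13.

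Genes that act on or with HOX genes were listed beside the 83.7% of all protein-coding genes with a peak. All 9 TALE cofactors (PBX, MEIS and PKNOX genes, whose products bind DNA together with HOX proteins) had a peak, with a median highest pileup of 35.6 tags and PKNOX1 highest at 87.1. So did 21 of 21 Polycomb group genes, which silence HOX clusters (median 42.04 tags, PHC2 highest at 77.6), and 12 of 12 Trithorax and MLL complex genes, which oppose that silencing (median 50.4 tags, KMT2B highest at 76.99). All 7 boundary factor genes, CTCF and cohesin among them, had one (median 69.6 tags, SMC1A highest at 82.3). The median lengths of these 4 lists, from 35004 to 138745 bp, were above that of HOX genes and above the 24115 bp of all protein-coding genes. A longer gene has more room for a peak, so the full shares do not set these lists apart. Over all protein-coding genes with a peak the median highest pileup was 47.8 tags. A mixed list held 9 further homeobox genes: CDX1, CDX2, CDX4, EVX1, EVX2, GSX1, GSX2, MNX1 and PDX1. Not all of them neighbour a HOX cluster or act upstream of one. Of these 9, 6 had a peak, with a median highest pileup of 14.7 tags. CDX1 was highest at 21.3 tags, and EVX1, CDX2 and CDX4 had none. Among the 12 HOX genes with a peak the median was 16.1 tags.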

How the data were processed

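Chromatin accessibility was measured in 1 ATAC-seq library of hCMEC/D3, grouped by its title. The authors deposited broad peaks in a table that gives, for each peak, its pileup signal in tags, a fold enrichment ratio and its p and q values as −log10, per the file headers. It was made with MACS 2.2.7.1 without a control, with a q of 0.05 (0.1 for broad regions), tags extended to 200 bp and at most 1 tag a position, per the file headers. Reads were sequenced in pairs, per the labels' protocols, but were called in single-end mode. The genome size was the mouse preset (-g mm), 1870000000 bp, which enters the background floor. Of 31532245 tags, 22188172 were kept. No peak had under 8.0 tags, so below that level accessibility could not be detected; lack of a peak does not show closed chromatin.

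The list names no build; the submitters' processing notes name GRCh38 and mm10 without saying which file each belongs to. On the chromosomes with HOX genes, 66.1% of 4948 RefSeq start regions were covered by a peak without an offset and at most 7.13% at 8 offsets of 2 to 50 kb. RefSeq tables of GRCh38.p14 gave gene extents and start regions, but no exons. The 2 RNA tables list transcripts that no table used here pairs with genes, and were not used.

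Overlaps, shares and Wilson intervals were computed with pandas 2.3.3 and scipy 1.17.1, checked on intervals with known overlaps. A peak was at the background floor when within 0.05 tags of it. Genes named with full values are, in each cluster, those with the highest pileup, most peaks and largest covered length, those without a peak, and the widest and highest peaks. The members and lists were chosen with earlier results of these data known. The gene-length, CpG-rich, lncRNA and miRNA backgrounds, the count over distinct starts, the gene-dense tiles and the set without HOXC4, HOXC5 and HOXC6 were chosen after seeing the data. A further homeobox family is not reported here.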

Additional observations from a re-analysis of the deposited data

How the results depend on the processing

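With 1 library no library could be left out. No paired analysis was possible because the ATAC group holds 1 library and was compared with no other group. Of 81 alternative values, 40 stayed near the reported one (within the Wilson interval for a share of genes, within 1.5 times for other values) and 41 moved; apart from stricter filters leaving fewer peaks and wider windows taking in more, the cause was not tested. The share of HOX genes with a peak, 31.6%, became 65.8% with a window of 5 kb (5000 bp), 18.4% with −log10 q of at least 5, 18.4% with a fold of at least 4 and 5.26% with pileups at or above the median of all peaks. Under the same settings all protein-coding genes gave 87.4%, 79.0%, 73.6% and 72.3%, and they gave 82.1% with no window, 83.1% at 500 bp and 85.5% at 2500 bp. In each of these settings the HOX share was the lower. The 4 HOX genes with a covered start, of 20 with a start region at hand, became 2 under the q limit, 2 under the fold limit and 0 under the pileup limit. Covered starts of all protein-coding genes under these limits are not given here, so this fall has no background beside it.

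In HOXA, 6 peaks became 3 with the q or fold filter and 0 with the pileup filter, where no median exists; coverage went from 2.57% to 1.32%, 1.32% and 0%, and to 1.56% with 50 kb added either side. In HOXB, 9 peaks became 4 with the pileup filter (0.930% covered) and 15 with 50 kb added. In HOXC, 5 peaks became 1 with each of the 3 filters, with 0.451% covered and a pileup of 23.2 tags, and coverage was 0.937% with 50 kb added. In HOXD, 6 peaks became 3 with the q or fold filter (1.62% covered) and 1 with the pileup filter (0.547%), and coverage was 2.15% with 50 kb added. Flanks of 20 kb moved none of these.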

Other observations

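Other developmental homeobox and PAX genes, a list chosen after the HOX values were seen, were examined in the same way. Of 29 DLX, IRX, LHX and PAX genes, which pattern limbs, sense organs, muscle and brain, 23 had a peak in or within 1 kb (79.3%, 95% Wilson interval 61.6% to 90.2%), near the 83.7% of all protein-coding genes, with a median highest pileup of 24.7 tags. DLX1 and DLX2, short neighbouring genes on the chromosome of HOXD, had 58.8 and 47.8 tags, and PAX8 was highest with 77.4. The list was not uniform: IRX5 had 56.1 tags and IRX3 13.1, and IRX1, IRX2, IRX6, DLX5, PAX1 and PAX4 had no peak. The low peaks of the HOX spans thus had counterparts in this list, such as PAX3 at 8.86 tags, while no HOX gene analysed reached the level of DLX1.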
